A study of Danio rerio with 6 samples.

Results

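Ion channels are membrane proteins through which ions pass, and those described here are the voltage-gated potassium, sodium and calcium channels of the zebrafish brain together with related families. They were found by name: a target belonged to them if its gene symbol began with kcn, scn and a digit, cacn, hcn and a digit, clcn, or trpa, trpc, trpm or trpv and a digit, with cacng1b left out. A target is a transcript covered by up to 3 probes on a one-colour oligonucleotide array. Of 38489 targets per array, 206 met this rule, and they stood for 154 genes. The symbol matched as written in the files for 76 of these targets, after an older name was brought up to date for 98, and in capitals, as the name of a gene of another species, for 32. Potassium channels made up 112 targets of 89 genes, sodium channels 16 of 13, calcium channels 45 of 26, and HCN, chloride and TRP channels together 33 of 26. A TRP-named target, trpc4apa, met the rule by its letters and encodes a protein associated with TRPC4, not a channel.

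The RNA came from brains of female AB zebrafish aged 12 months, with 1 brain on each array. The lead group had 3 fish that were kept as embryos in lead acetate at 100 ppb from before 2 until 72 hours after fertilization and were raised without lead from then on. The control group had 3 fish handled alike at 0 ppb. The comparison asks whether expression in the older brain differs after that early exposure. Each change is the lead mean minus the control mean in log2 target intensity, where 1 unit is a 2-fold difference, and carries its standard error. Because probes differ in how well they bind, values are compared between brains and never between genes.

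Potassium channels let neurons return to rest after an action potential and set the resting potential. Sodium channels start the action potential and carry it along the axon, and calcium channels turn it into calcium entry, which releases transmitter at nerve endings. Each has a pore-forming subunit and auxiliary subunits that alter its gating or its number at the membrane. Lead ions are known to block voltage-gated calcium channels when applied directly, which is background here, since the fish had been out of lead since early life.

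Most of these channel targets were measurable in the brain, as were most targets on the array. No channel target differed between lead and control brains after adjustment for all targets. A target was taken as above background on an array if it exceeded the 95th percentile of that array's random control probes, which lay at log2 9.89 to 10.36. By this measure 116 of 206 channel targets were above background on all 6 arrays, 56 on none and 34 on some. Among all 38489 targets these counts were 21465, 11517 and 5507, a similar split. In limma (moderated test, Benjamini-Hochberg adjustment), 0 of 206 channel targets had an adjusted p under 0.05, against 0 of all 38489 targets, or 0% of them. An unmoderated test gave 0 channel targets as well. Without adjustment, 8 channel targets had a p under 0.05 in limma, or 3.88%, against 4.41% of all targets. Of these, 6 were higher (all targets 2.57%) and 2 lower (all targets 1.83%) in lead brains. Lead and control values did not overlap for 23 channel targets, or 11.2%, against 9.49% of all targets. Of these, 14 were higher (all targets 5.74%) and 9 lower (all targets 3.75%) in lead brains. The count of 8 was 4 without lead brain 1, 6 without control brain 3, and 13 without lead brain 2, lead brain 3 or control brain 2, each left out alone. The count over all targets was 1063 without lead brain 1, 1075 without control brain 3 and 3098 without control brain 2. Without any other single fish, lead brains 2 and 3 included, it lay between 1063 and 3098. The median change of the channel targets was 0.007, beside 0.003 for all targets.

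The intervals show how large a difference could have gone unseen. Among the 116 targets above background on all arrays, the 95% interval of the change lay within 2-fold in either direction for 103, or 88.8%, against 91.3% of all targets above background on all arrays. Over all 206, dim targets included, whose intervals bound no expression change, the 95% interval of the change lay within 2-fold for 177, or 85.9%, and for 86.8% of all targets. The median standard error was 0.18 in both. An estimate lay within 0.5 of 0 for 194 channel targets, or 94.2%, and for 94.1% of all targets. Across the subunit classes the estimates clustered around 0, as the plot of changes by class shows.

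**Figure D1:**
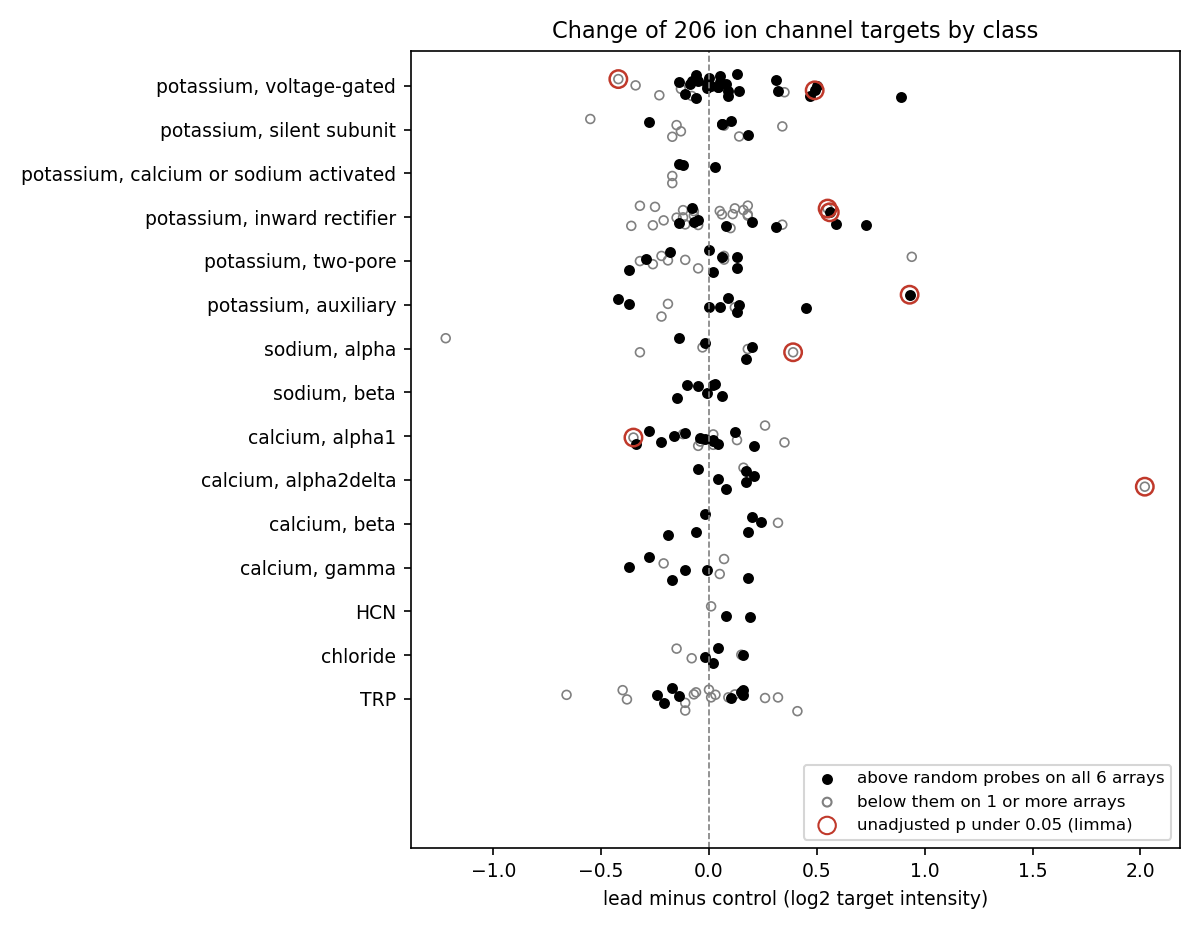
Change of each of the 206 channel targets in brains of lead-exposed fish relative to control brains (log2 target intensity, horizontal axis), in rows by channel class. Filled points were above the random probes on all 6 arrays, open points were not, and red rings mark the 8 targets with an unadjusted p under 0.05 in limma. CACNA2D4 at 2.02 and scn4ab at -1.22 lie farthest from 0.

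Of the 112 potassium channel targets, 61 were above background on all arrays and 29 on none, and their median change was 0.006. Without adjustment 5 had a p under 0.05 in limma, or 4.46%, near the 4.41% of all targets, with 4 higher and 1 lower in lead brains. The smallest p was that of kcnj11, which encodes Kir6.2, the pore of the ATP-sensitive potassium channel that closes when cellular ATP rises. Its target (NM_001039827, Zv7 assembly, chromosome 25, 19105217 to 19106363) had log2 intensities of 12.21, 11.99 and 12.20 in the lead brains, against 11.71, 11.52 and 11.48 in the control brains. All 3 lead brains lay above all 3 control brains. The mean was 12.13 ± 0.12 in lead brains and 11.57 ± 0.12 in control brains (SD, n = 3 each), a difference of 0.56 ± 0.14, or 1.47-fold. This passed p under 0.05 only without adjustment (limma, unadjusted p = 0.00441, adjusted p = 0.958). Each of the 3 kcnj11 probes separated the groups too, with differences of 0.56, 0.77 and 0.50. Over the 14 alternative analyses its difference lay between 0.50 and 0.63 and its unadjusted p between 0.00275 and 0.0358. Both targets of kcnj11l, a gene of like name, overlapped between the groups, at −0.07 ± 0.17 and −0.08 ± 0.16.

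The auxiliary subunit gene kcnip3b encodes a calcium-binding protein of the KChIP family, known in mammals as calsenilin or DREAM, which binds Kv4 potassium channels and also acts as a transcriptional repressor. The target OTTDART00000024225 lies on chromosome 10, 12811015 to 12819425, where coordinates of targets with such names belong to an assembly that the files do not give. It had values of 11.44, 11.49 and 10.97 in lead brains, against 9.99, 10.21 and 10.93 in control brains. Lead brain 3 and control brain 3 were nearly level, and the other lead brains stood clearly above the other controls. Control brains 1 and 2 lay close to background, which was 9.89 and 9.97 on those arrays. The difference was 0.93 ± 0.27 (limma, unadjusted p = 0.0118, adjusted p = 0.958). The authors' deposited table of 94 altered targets holds 1 channel target, and it is this one, as KCNIP3 with a fold score of 1.9, a log2 ratio of 0.926 and a p-value of 0.048. A second target of the gene, OTTDART00000024223, had 13.86, 12.93 and 13.72 in lead brains, against 12.83, 13.11 and 13.21 in control brains. Here lead brain 2 fell among the controls, and the difference was 0.45 ± 0.26. The paralog kcnip3a was at 0.05 ± 0.17.

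Partners of the KChIP proteins are the Kv4 channels, which carry the fast-inactivating A-type current that delays firing. The kcnd2 target, for Kv4.2, had 12.48, 12.37 and 12.05 in lead brains, against 12.02, 11.76 and 11.66 in control brains. The groups did not overlap, although the lowest lead brain lay only just above the highest control. The difference was 0.49 ± 0.17, or 1.40-fold (limma, unadjusted p = 0.0239, adjusted p = 0.958), with 0.59 and 0.60 on 2 of the probes and 0.09 on the third. Its unadjusted p ran from 0.0127 to 0.0799 over the alternatives. The Kv4.3 target, kcnd3, was at 0.05 ± 0.16. Other KChIP genes lay elsewhere: kcnip1a, for KChIP1, had 13.20, 13.32 and 13.64 in lead brains, against 13.63, 13.67 and 13.97 in control brains, a difference of −0.37 ± 0.17. Only lead brain 3 and control brain 1 kept those groups from separating. For kcnip1b, one target was at 0.13 ± 0.17 and the other at −0.42 ± 0.52.

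**Figure D2:**
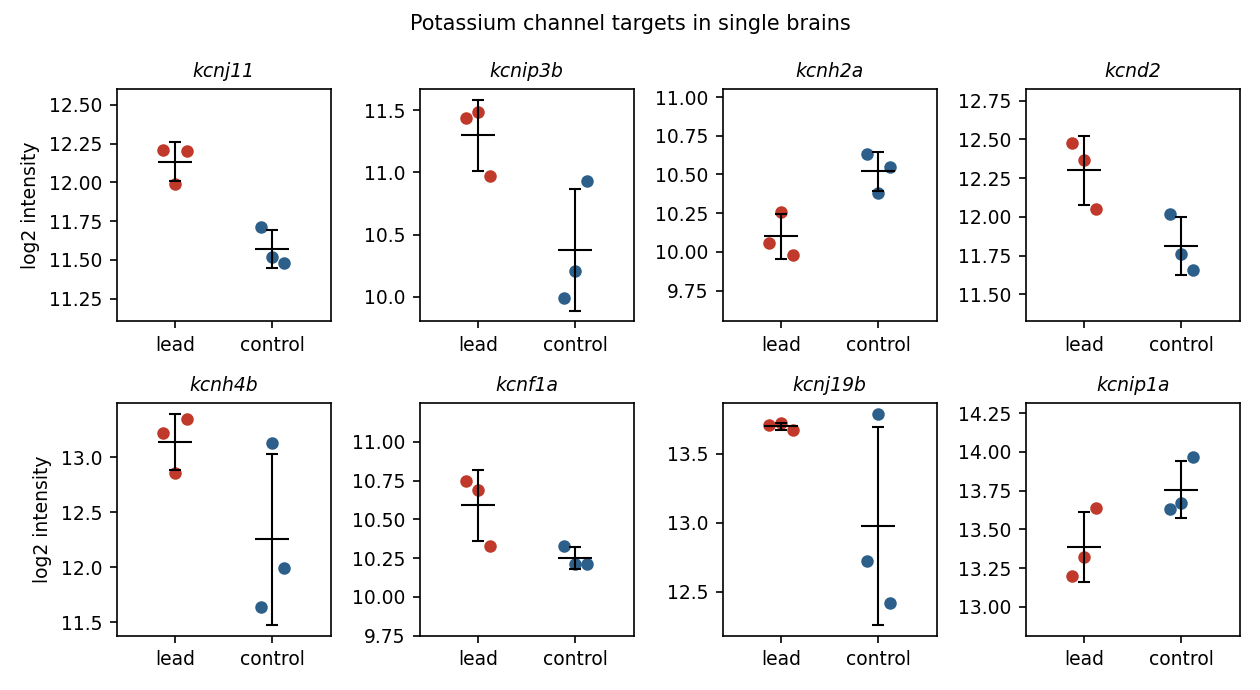
Log2 target intensity (vertical axes) of the 8 named potassium channel genes in single brains, with lead brains in red and control brains in blue, and bars for mean and SD (n = 3 each). For kcnip3b the target OTTDART00000024225 is drawn. The groups do not overlap for kcnj11, kcnip3b, kcnh2a, kcnd2 and, by the smallest margin, kcnf1a.

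The 33 targets of voltage-gated potassium pore subunits, from 26 genes, had a median change of 0.008, and 26 of them were above background on all arrays. One of the lower ones was kcnh2a, an ERG-type channel gene, whose current helps to end the action potential in heart and neurons (NM_001042722, Zv7 chromosome 2, 19640653 to 19727860). It had 10.06, 10.26 and 9.98 in lead brains, against 10.63, 10.38 and 10.55 in control brains. The lead brains were lower without overlap, but close to background, since only 1 of the 3 lead arrays and all 3 control arrays exceeded the random probes. The difference was −0.42 ± 0.14 (limma, unadjusted p = 0.0197, adjusted p = 0.958), and −0.20 with an unadjusted p of 0.274 when the median of its probes was used. The separate ERG targets kcnh2 and KCNH2 were at 0.01 ± 0.17 and −0.09 ± 0.23. Among genes that serve repetitive firing, kcna1a, for Kv1.1, was at 0.04 ± 0.12, and the 3 targets of kcnc1a, for the fast Kv3.1 channel, were at 0.04, 0.08 and 0.31. For kcnc3a, another Kv3 gene, one target did not overlap between groups, at 0.32 ± 0.15, and the other did, at 0.05 ± 0.14. The M-current gene kcnq5a was at −0.14 ± 0.20.

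Silent subunits form no channel alone but modify other potassium channels. Of their 12 targets, 5 were above background on all arrays, and the median change was 0.059. The kcnf1a target had intensities of 1722, 1652 and 1288 in lead brains, against 1287, 1185 and 1183 in control brains. Lead brain 3 and control brain 1 differed by a single unit, so the separation of these groups rests on that margin. Its difference was 0.34 ± 0.15 with 3 lead and 2 control arrays above background. The kcng2 targets, both at 0.06, and kcng4a, at 0.10 ± 0.15, overlapped.

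Inward rectifiers hold the membrane near rest, and 10 of their 33 targets were above background throughout while 16 were not on any array. Many of the dim targets belong to kcnj1a.1 to kcnj1a.6, numbered genes at separate positions on chromosome 18 that probes may not tell apart. One of them, kcnj1a.2, was among the 8 at an unadjusted p under 0.05, with a difference of 0.55 ± 0.17, while its other target was at −0.26 ± 0.14. All kcnj1a.2 values were under background, so no level can be read from them. Beside kcnj11, kcnj1b separated the groups above background, with 11.59, 11.34 and 11.23 in lead brains, against 11.14, 11.17 and 10.91 in control brains (difference 0.31 ± 0.15). The G-protein-gated channel gene kcnj6 was at 0.20 ± 0.14 and its relative kcnj5 at 0.08 ± 0.16. The kcnj13 target was at −0.05 ± 0.16.

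Two-pore channels carry the leak current at rest. Of 17 targets, each under a different name, 8 were above background on all arrays, and the median change was −0.054. None reached an unadjusted p under 0.05 in limma, against 4.41% of all targets. None kept the groups apart, against 9.49% of all targets. The kcnk1a and kcnk1b targets were at 0.02 ± 0.14 and 0.13 ± 0.13, and kcnk10a at 0.00 ± 0.13. The 2 targets named kcnk9 and KCNK9 were at −0.37 ± 0.29 and −0.18 ± 0.27. Among channels opened by calcium, kcnn2, for the small-conductance SK2 channel, had 12.74, 12.62 and 12.65 in lead brains, against 12.85, 12.79 and 12.74 in control brains. The difference of −0.12 ± 0.12 was small although the groups barely separated.

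No sodium channel target above background reached a p under 0.05 in limma, adjusted or not. Without adjustment, 3.97% of all targets above background on all arrays did. Of 16 targets, 11 were above background on all arrays and 4 on none, and the median change was −0.016. The pore subunit gene scn1lab, whose loss causes seizures in zebrafish larvae, had 13.26, 13.20 and 13.39 in lead brains, against 12.72, 13.20 and 13.43 in control brains. The lead values fell inside the control range, and the difference was 0.17 ± 0.20 with a 95% interval from −0.30 to 0.64. It was −0.03 without control brain 1. The Nav1.6 genes, which act at the axon initial segment and the nodes, were at −0.02 ± 0.14 for scn8aa and −0.14 ± 0.21 for scn8ab. For scn8ab the lead brains had 12.93, 12.65 and 12.86, against 13.31, 12.53 and 13.03 in control brains, so that the controls spanned the lead group, and the difference was 0.03 without control brain 1. The scn5lab target, of the Nav1.5 family that in mammals serves the heart, was at 0.20 ± 0.23.

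The sodium channel beta subunits, single-pass proteins that adjust gating and cell adhesion, were all above background on every array. Their 7 targets lay between −0.15 and 0.06. The scn4ba target, for the beta4 subunit, had 13.56, 13.34 and 13.70 in lead brains, against 13.64, 13.77 and 13.65 in control brains, a difference of −0.15 ± 0.14. The scn3b target was at −0.10 ± 0.15. The scn12aa target was the only sodium channel target to pass without adjustment (limma, unadjusted p = 0.0435, adjusted p = 0.958), at 0.39 ± 0.16, but it was below background on all 6 arrays. That made 1 of 16 sodium channel targets, or 6.25%, against 4.41% of all targets.

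**Figure D3:**
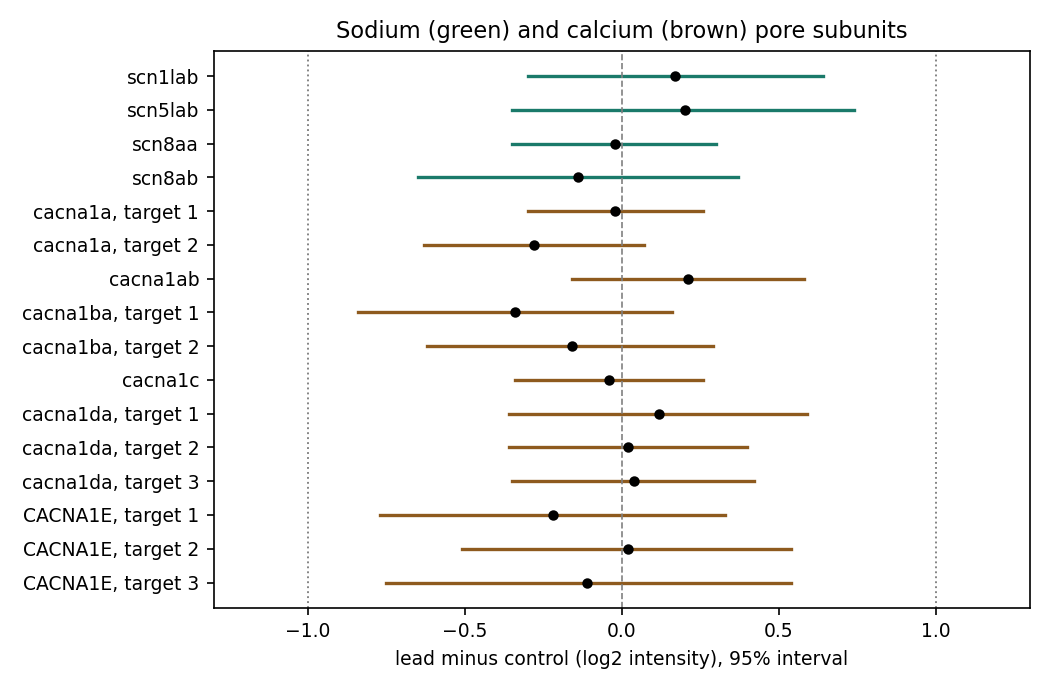
Lead minus control change (log2 intensity, horizontal axis; points) with 95% intervals (lines) of the sodium (green) and calcium (brown) pore subunit targets that were above background on all 6 arrays; dotted lines mark a 2-fold change in either direction. Every interval crosses 0 and lies within 2-fold.

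Of the 45 calcium channel targets, 30 were above background on all arrays and 10 on none, and their median change was 0.020. Without adjustment 2 had a p under 0.05 in limma, or 4.44%, near the 4.41% of all targets, with 1 higher and 1 lower in lead brains. The 21 pore subunit targets lay between −0.35 and 0.35. The P/Q-type channel gene cacna1a, which drives fast transmitter release, had 2 targets, at −0.02 ± 0.12 and −0.28 ± 0.15. On the second, OTTDART00000004925, lead brains had 13.31, 13.47 and 13.65, against 13.84, 13.58 and 13.84 in control brains. Lead brains 1 and 2 were lowest, and lead brain 3 lay above control brain 2. The direction of the first target, OTTDART00000004904, turned under 3 of the 14 alternatives. The paralog cacna1ab was at 0.21 ± 0.16. For the N-type gene cacna1ba, target OTTDART00000021541 had 12.50, 13.19 and 12.65 in lead brains, against 13.22, 12.90 and 13.23 in control brains, a difference of −0.34 ± 0.21, and the second target was at −0.16 ± 0.19. The R-type gene CACNA1E had 3 targets above background on all arrays, at −0.22, −0.11 and 0.02, and another under background on all of them.

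L-type channels, which couple depolarization to gene expression in neurons, were at −0.04 ± 0.13 for cacna1c and at 0.02, 0.04 and 0.12 for the 3 targets of cacna1da. The cacna1fb gene, whose mammalian counterpart serves photoreceptors, had 3 of its 4 targets under background on all arrays. Its other target, ENSDART00000041564, was at 0.26 ± 0.17 with 2 lead and 2 control arrays above background. The muscle gene CACNA1S was under background on all arrays for each of its 3 targets. One of these was the second lower target among the 8, at −0.35 ± 0.14, and gives no level. A separate target named cacna1sb was above background on 2 lead and 2 control arrays. It had 9.78, 10.23 and 10.79 in lead brains, against 10.07, 10.15 and 10.18 in control brains, a difference of 0.13 ± 0.25.

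The largest estimated change among the channel targets was that of an auxiliary calcium channel subunit. Alpha2delta subunits bring the channel to the membrane, and the form named CACNA2D4 is known in mammals from the retina. Its target (ENSDART00000027465, Zv7 chromosome 25, 9816349 to 9850878) had 12.75, 12.49 and 13.02 in lead brains, against 9.53, 12.66 and 10.02 in control brains. Control brain 2 lay inside the lead range, while control brains 1 and 3 were below the random probes. Means were 12.75 ± 0.26 in lead brains and 10.74 ± 1.69 in control brains (SD, n = 3 each). The difference was 2.02 ± 0.76, or 4.05-fold, with a 95% interval from 0.22 to 3.81 (limma, unadjusted p = 0.0325, adjusted p = 0.958). It was 1.41 without control brain 1. Both estimates include control values below the random probes, so neither gives the size of an expression difference. Without control brain 2 both remaining controls were below the random probes, so the fitted 2.98 (limma, adjusted p = 0.0917, and 0.0917 to 1 over the alternatives) is not a measured difference. All 3 probes showed the pattern, at 2.32, 1.94 and 1.93. A separate target named cacna2d4 was under background on all arrays. All 8 targets of the photoreceptor and lens marker list, from 7 of its 11 genes, were also below the random probes on every array. Among them were gnat1 and the opsins opn1sw1, opn1mw1 and opn1lw1. The rod opsin gene rho had no target under its symbol.

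Among the other alpha2delta targets, the cacna2d1a target was at 0.04 ± 0.23, cacna2d2a at −0.05 ± 0.23, and the cacna2d2b targets at 0.08 ± 0.19 and 0.17 ± 0.16. Beta subunits, which carry the pore to the membrane from the inside, had 7 targets between −0.19 and 0.32. The cacnb2b target had 13.65, 13.82 and 13.85 in lead brains, against 13.52, 13.65 and 13.44 in control brains, and its groups met without overlapping (difference 0.24 ± 0.13).

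Gamma subunits of the type called TARPs bind AMPA receptors and govern their number at synapses. The 3 targets of CACNG8, for the TARP gamma-8, were all lower in estimate in lead brains, at −0.37 ± 0.17, −0.28 ± 0.15 and −0.17 ± 0.13. On target ENSDART00000103894 lead brains had 13.92, 13.65 and 14.20, against 14.25, 14.28 and 14.37 in control brains, with every lead brain below every control. This missed the threshold even without adjustment (limma, unadjusted p = 0.0603, adjusted p = 0.958). The 3 targets overlap on Zv7 chromosome 16, between 9615734 and 9647142, so they are not independent readings. The cacng8a target OTTDART00000020556 was at −0.11 ± 0.14. The cacng2a target, for the TARP known as stargazin, had 13.39, 13.38 and 13.23 in lead brains, against 13.16, 13.20 and 13.10 in control brains. Its difference was 0.18 ± 0.12 with no overlap. A target outside the rule, TC260848, named CACNG2 only by a homologue in another species, went the other way. It was above background on all arrays, at −0.34 ± 0.16 with overlapping groups.

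**Figure D4:**
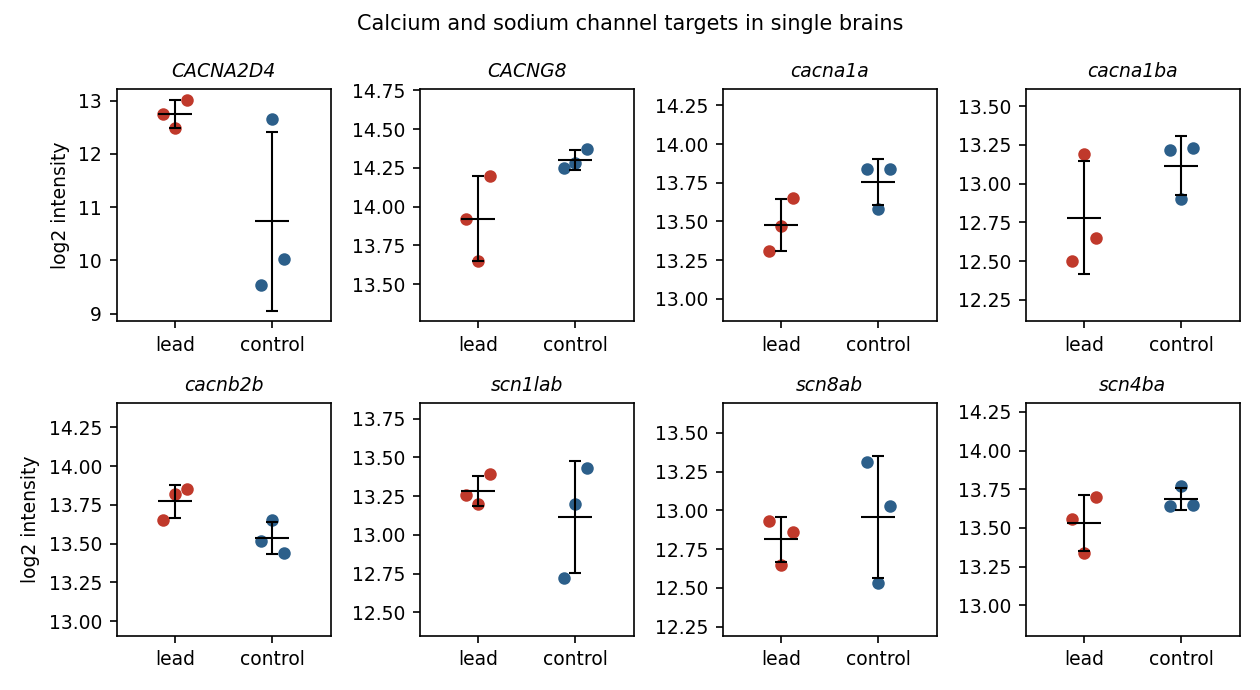
Log2 target intensity (vertical axes) of 8 calcium and sodium channel targets in single brains, with lead brains in red and control brains in blue, and bars for mean and SD (n = 3 each). The targets drawn are ENSDART00000103894 for CACNG8, OTTDART00000004925 for cacna1a and OTTDART00000021541 for cacna1ba. Control brain 2 stands at the lead level for CACNA2D4, and only CACNG8 and cacnb2b keep the groups apart.

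HCN, chloride and TRP channels gave 0 of 33 targets at an unadjusted p under 0.05 in limma, against 4.41% of all targets. Of these 33 targets, 14 were above background on all arrays. The pacemaker channel gene hcn2 was at 0.19 ± 0.20 and 0.08 ± 0.16 on its 2 measurable targets. Chloride channel and exchanger targets lay between −0.15 and 0.16, with clcn4 at 0.04 ± 0.15, clcn6 at 0.02 and −0.02, and clcn2a at 0.16 ± 0.22.

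TRP channels are cation channels opened by lipids, temperature or chemicals, and 10 of their 23 targets were under background on all arrays. The trpc5a target OTTDART00000009310 had 10.31, 10.85 and 11.81 in lead brains, against 11.65, 11.45 and 11.84 in control brains. Lead brains 1 and 2 were low and lead brain 3 stood with the controls, giving −0.66 ± 0.36. Its second target was below background throughout. A target named TRPC5 had 12.01, 11.91 and 11.81 in lead brains, against 12.03, 12.07 and 12.15 in control brains, a difference of −0.17 ± 0.12. The trpm2 gene, whose channel opens in oxidative stress, was at −0.38 ± 0.28 with 1 lead array and 3 control arrays above background. The irritant sensor gene trpa1b was at −0.24 ± 0.18. The trpm1a target was at 0.15 ± 0.12 and took the other direction, −0.10, when the median of its probes was used.

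Channel targets also differed from fish to fish within a group, about as much as all targets did. Their median SD was 0.21 in control brains and 0.21 in lead brains, against 0.21 and 0.19 for all targets. Of 131 channel targets above background on at least 3 arrays, 25 spanned more than 1 log2 unit within a group, 16 of them among the controls and 14 among the lead brains. The share of all targets with such a span was not computed. In some of these, control brains 1 and 3 were low and control brain 2 was at the lead level, and 4 were chosen after their values were seen. The 4 were CACNA2D4, kcnh4b, kcnj19b and kcnk3b. The kcnj21 target, not among the 4, also had control brains 1 and 3 below every lead brain. It had 11.28, 12.02 and 11.68 in lead brains, against 11.04, 11.73 and 10.43 in control brains, a difference of 0.59 ± 0.35. The kcnh4b target, for an ELK-type potassium channel (ENSDART00000089042, Zv7 chromosome 12, 16227231 to 16282711), had 13.22, 12.86 and 13.35 in lead brains, against 11.64, 13.13 and 11.99 in control brains. Its difference was 0.89 ± 0.38, and 1.33 without control brain 2. The inward rectifier target kcnj19b had 13.71, 13.72 and 13.67 in lead brains, against 12.72, 13.79 and 12.42 in control brains. The 3 lead brains agreed closely while the controls spread, and the difference of 0.73 ± 0.33 was 1.13 without control brain 2. The two-pore channel target kcnk3b had 10.79, 10.04 and 10.47 in lead brains, against 8.69, 10.64 and 9.15 in control brains, a difference of 0.94 ± 0.49 near background.

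A list of markers of the cerebellum, a region rich in granule cells, was split. Of that list, 7 of 11 genes were measured by 20 targets, 17 of them above background on all arrays, and 10, or 50%, were higher in lead brains at an unadjusted p under 0.05, against 2.57% of all targets. These 10 were targets of pax6a, pax6b, zic2a and ca8. Most were pax6a targets that overlap on chromosome 25 or pax6b targets that overlap on chromosome 7. The 10 are therefore not independent readings, and the 50% is not a share of genes. The pax6b target OTTDART00000022987 had 13.51, 13.41 and 14.25 in lead brains, against 11.43, 12.66 and 11.88 in control brains. Targets of pvalb7, a Purkinje cell gene, did not share this, with OTTDART00000012618 at −0.32 ± 0.16 and OTTDART00000020182 at −0.15 ± 0.13. The mean level of the whole list was 13.11 to 13.46 in lead brains and 12.42 to 12.96 in control brains. Its median deviation from the 6-array mean was 0.21, 0.09 and 0.36 in the lead brains, against −0.48, −0.01 and −0.30 in the control brains, so control brain 2 was the control nearest to the lead brains. In whole-brain RNA, more cells of a type and more RNA per cell cannot be told apart, and the part of the cerebellar signal in these channel values was not tested.

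**Figure D5:**
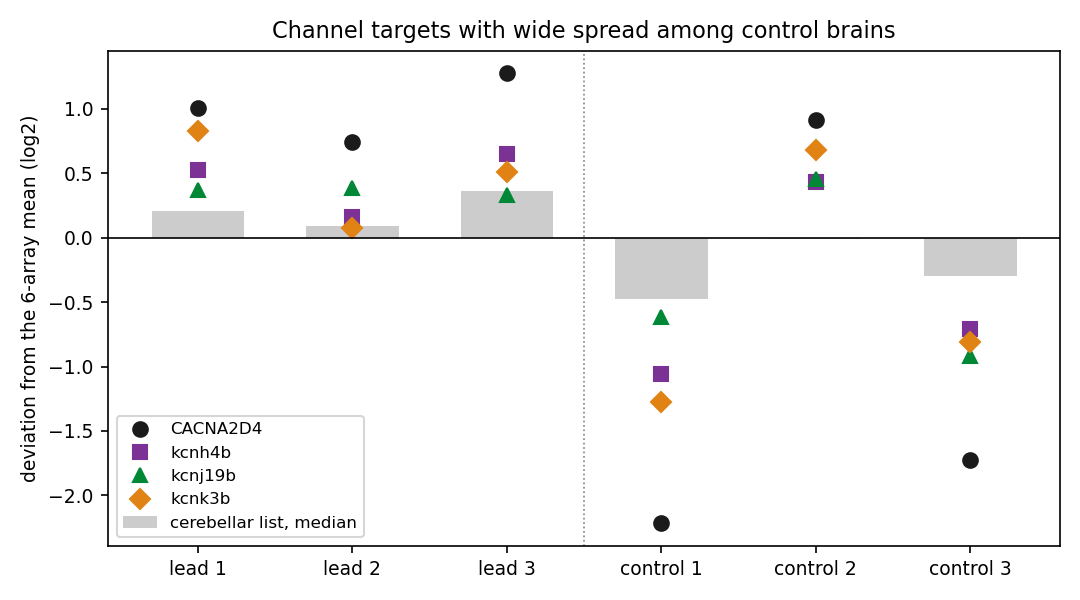
Deviation of each brain from the 6-array mean (log2 intensity, vertical axis) for 4 channel targets with a wide spread among controls (symbols) and the median of the cerebellar marker list (grey bars), with lead brains left of control brains. Control brains 1 and 3 lie below the mean for all 4 channels and for the list, while control brain 2 lies at the lead level for the channels. The 4 were chosen for this pattern after their values were seen, and a link to the list was not tested.

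Other channels split the brains in ways that cut across the groups. Both scn4bb targets, for a second beta4 subunit, were high in lead brains 1 and 3 and control brain 1. The target OTTDART00000013440 had 13.03, 12.07 and 12.86 in lead brains, against 13.65, 11.88 and 12.46 in control brains, and its change was −0.01 ± 0.47. The 2 cacna2d3 targets, for another alpha2delta subunit, were likewise high in those 3 brains, with 12.90, 11.61 and 12.95 in lead brains, against 12.99, 11.80 and 12.04 in control brains on ENSDART00000034602. The kcnj12b target spread widely in both groups, at 9.60, 11.51 and 10.45 in lead brains, against 8.78, 11.81 and 10.41 in control brains, and its change was 0.18 ± 0.79.

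A single brain decided scn4ab, a gene of the skeletal muscle sodium channel family. It had 8.15, 8.06 and 8.44 in lead brains, against 11.49, 8.72 and 8.09 in control brains, so that control brain 1 was the only array above background. The change of −1.22 ± 0.81 rests on that brain. On control brain 1 the skeletal muscle list, with 8 of 23 targets above background on all arrays, had a median deviation of 0.34, against −0.17 to 0.06 in lead brains and −0.11 and −0.05 in the other controls. The pituitary list deviated by 1.77 on the same brain, with a mean level of 9.30 to 10.29 in lead brains and 9.47 to 12.65 in control brains, and the hair cell list by 0.63. The part of either tissue was not tested. The muscle chloride channel target clcn1b exceeded background on control brain 1 alone, at 10.08, and clcn1a on no array. That array also had the lowest background, at 9.89. On clcn1b the lead brains had 9.77, 9.27 and 9.80 and the other controls 9.34 and 9.87.

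Several targets were available for 35 channel genes. Of these genes, 32 had changes within 0.5 of one another, and 18 had all their targets on one side of 0. The exceptions on the first count were kcnj1a.2, trpc5a and kcnip1b. For 4 genes, CACNA1E, hcn2, kcna7 and kcnn1b, some targets were above background on every array and others on none. At the level of single probes, 27 of 615 channel probes, or 4.39%, had an unadjusted p under 0.05 in limma, against 4.28% of all 113549 probes, with 0 past adjustment in either.

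Proteins that anchor channels or carry ions beside them were looked at as a wider list of 128 genes. Of these, 68 were measured by 83 targets, 63 of them above background on all arrays. In limma 0 passed adjustment, and 1 had an unadjusted p under 0.05, or 1.2%, against 4.41% of all targets. That one was cnga1b, a cyclic nucleotide-gated channel gene, which was higher in lead brains but under background on all arrays. The median change was −0.013. Among those above background, dlg1a, a scaffold that clusters channels at synapses, had, on OTTDART00000024436, 14.71, 14.61 and 14.74 in lead brains, against 14.04, 14.65 and 14.23 in control brains, a difference of 0.38 ± 0.18. Here too control brain 2 stood with the lead brains, but the second dlg1a target, OTTDART00000024435, was at −0.10 ± 0.16. The acid-sensing channel gene asic1b had 12.69, 12.84 and 12.84 in lead brains, against 13.09, 12.89 and 13.21 in control brains, a difference of −0.28 ± 0.14 with no overlap. The node adhesion gene nrcama was at −0.74 ± 0.37, the inositol trisphosphate receptor gene itpr2 at 0.31 ± 0.16 and 0.29 ± 0.18 on its 2 targets, and the calcium-activated chloride channel gene ano2b at 0.72 ± 0.45, each with overlapping groups.

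The tissue label was checked with neuronal markers, and all 16 of their targets were above background on all arrays, with a median change of 0.030. Of the other lists, oligodendrocyte targets had a median change of −0.168, radial glia 0.224, microglia 0.001 and heart muscle −0.138, and 0 of 5 heart targets were above background on all arrays. Erythrocyte markers had a median change of −1.096, with 6 of 9 targets, or 66.7%, lower at an unadjusted p under 0.05, against 1.83% of all targets. Their median deviation was 0.33, −1.23 and −0.73 in lead brains, against 0.90, 0.36 and 0.54 in control brains, and their part in the channel values was not tested. The 9 erythrocyte targets came from 7 genes, with alas2 and slc4a1a measured more than once. They are therefore not independent readings, and the 66.7% is not a share of genes. Lead brains were lower without overlap for 3 of the 9, or 33.3%, against 3.75% of all targets.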

How the data were processed

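Brain RNA of 3 lead and 3 control females, 1 fish per array, was labelled with Cy3. The authors deposited an intensity per target, made with RMA per the submitters' processing notes (version not stated), and a score for its standard error, which was not used. They also deposited probe intensities with random control probes. For altered targets the authors also deposited a signed fold score, a p-value and a log2 ratio, as named in the file headers, and their test is not given in the sources used here.

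Log2 of the deposited target intensities was fitted with limma 3.58.1 in R 4.3.3 over all 38489 targets, two-sided, with Benjamini-Hochberg adjustment and a threshold of 0.05. No filter or constant was applied. The fit was also run on simulated data with independent noise for each target, which checks the code and not the results reported here. Symbols were brought up to date through RefSeq names (assembly GRCz12tu, names only). Coordinates are those of the files, on Zv7 except for OTTDART targets, whose assembly is not given. Further software was matplotlib 3.10.9, numpy 2.4.6, pandas 2.3.3 and Python 3.11.15.

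The members, the marker and partner lists and the tests were chosen with earlier results of these data known. Genes are named by smallest p among targets above background on at least 3 arrays, namely up to 8 potassium, 5 sodium, 8 calcium, 5 other channel and 5 partner genes, with every other target of the same gene and any channel in the authors' table. Further members are named as examples of each class, after their values were seen. Single values of some members are not reported here. All arrays were read in 1 scan. The position of an array in it and its group cannot be told apart. Arrays had median target intensities of 2100 to 2211 and between 59.8% and 66.7% of targets above background. The number of fish limits the precision. Alternatives were another normalization, centring, filters, the moderation of the test, the median of the probes, a replicate block and leaving out each fish.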

Additional observations from a re-analysis of the deposited data

How the results depend on the processing

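No channel target passed adjustment under any alternative run, and over all targets 1 did when only targets above the median intensity were tested, which also lowered the unadjusted count to 978 because fewer targets were tested. That count ranged from 1063 to 3098 when single fish were left out. The 8 channel targets at an unadjusted p under 0.05 became 5 among targets above the median intensity and 5 among those above the random probes on at least 3 arrays, where fewer were tested. With members restricted after seeing the data they became 3 of 76 with symbols as written, or 3.95%, against 4.41% of all targets. Among members above the random probes on all 6 arrays they became 3 of 116, or 2.59%, against 3.97% of all targets above them. Leaving out single fish gave 4 to 13. The potassium median was 0.054, 0.052, −0.049 and 0.053 under these same settings, in that order, and the calcium median ran from −0.070 to 0.038 without single fish.

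Of 31 named channel targets, 26 kept their direction in all 14 alternatives. With the median of the probes trpm1a was at −0.10 and the cacna1a target OTTDART00000004904 at 0.07. Without single fish, scn1lab ran from −0.03 to 0.32, scn5lab from −0.01 to 0.35, scn8ab from −0.35 to 0.03 and that cacna1a target from −0.05 to 0.01. The cause was not tested.

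The values gave no clear pairing of the fish by replicate number. Deviations of same-numbered fish correlated at 0.3059, 0.03341 and −0.04702. Lead fish 1 correlated best with control fish 1, and lead fish 2 and 3 correlated best with another number. Deviations from a mean of 3 fish depend on one another, so these correlations cannot exclude a pairing. With the replicate block, 0 channel targets passed adjustment, 8 had an unadjusted p under 0.05, and 2035 of all targets did. Array signal near background limits 90 channel targets that were not above the random probes on every array.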

Other observations

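A further 60 targets carried the name of a channel only as that of a homologue in another species and fell outside the rule, and 30 of them were above background on all arrays. In limma 0 passed adjustment, and 4, or 6.67%, had an unadjusted p under 0.05, against 4.41% of all targets. The target ZV700S00003190, named CACNA2D3 in this manner (Zv7 chromosome 8, 52692506 to 52693146), had log2 intensities of 11.68, 11.82 and 11.66 in lead brains, against 12.02, 12.16 and 12.28 in control brains. Every lead brain was below every control, with a difference of −0.44 ± 0.13 (limma, unadjusted p = 0.013, adjusted p = 0.958). The 2 cacna2d3 targets in the set itself were at 0.21 and 0.17 and overlapped between groups. The target ZV700S00001468, named for KCNJ9, KCNJ6 and KCNJ5 together, had 12.99, 12.69 and 12.95 in lead brains, against 11.86, 12.52 and 12.44 in control brains, a difference of 0.60 ± 0.21 without overlap. Targets named kcnj6 and kcnj5 were at 0.20 and 0.08. The other 2 of the 4, named KCNF1 and SCN3A, were under background on all arrays.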
